A study of Mus musculus with 4 samples.

Results

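The genes described here are Nppb, which encodes B-type natriuretic peptide, and 4 regulators of heart muscle growth, Nkx2-5, Gata4, Nfatc3 and Rcan1. They were chosen by name: every clone whose only platform gene symbol is one of these 5 was taken, which gave 9 clones of the 16471 analysed and 5 genes of 8106. All 9 clones had a value on all 4 arrays. Nppb (Entrez gene 18158, feature 4458), Nkx2-5 (Entrez gene 18091, feature 11561) and Rcan1 (Entrez gene 54720, feature 9250) had 1 clone each. Gata4 (Entrez gene 14463) had 3, features 2134, 6019 and 8247, and Nfatc3 (Entrez gene 18021) had 3, features 6028, 8282 and 9160, numbered clone 1 to 3 in this order below.

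RNA came from both ventricles and the septum of 6 male mice aged 12 to 13 weeks, given as wild-type and 1-renin, on a 129Ola/C57BL/6J background at backcross N5–6. All 6 had lost 1 kidney, had received deoxycorticosterone acetate (DOCA), a steroid with mineralocorticoid action, for 5 weeks and were fed a diet holding 0.5 mg sodium per g. High salt means 1% NaCl in the drinking water for 5 weeks (3 mice), and low salt means tap water (3 mice). DOCA is thus shared by both groups, and no mouse without it or with both kidneys was compared. Each array set 1 high-salt heart against 1 low-salt heart in 2 dyes. The high-salt RNA was labelled with Cy3 for arrays 1 and 2 and with Cy5 for arrays 3 and 4, and arrays 2 and 4 held the same 2 mice, so the 4 arrays are 3 pairs of mice.

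B-type natriuretic peptide is a hormone that heart muscle cells secrete when the wall is stretched. It acts on the kidney and on blood vessels to excrete sodium and lower pressure, and its mRNA is a widely used marker of a loaded ventricle. Gata4 and Nkx2-5 are transcription factors of heart muscle, present from the embryo onward, that bind each other and activate natriuretic peptide genes. Nfatc3 is a transcription factor held in the cytoplasm until the calcium-activated phosphatase calcineurin removes its phosphates. It then enters the nucleus and works with Gata4 in the calcineurin route to hypertrophy. Rcan1 binds and restrains calcineurin, and its own transcription from an internal promoter rises with NFAT activity, so its mRNA is used as a readout of that route.

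The 2 genes of the set that are read out downstream of the others are shown first by their promoters, because the results on the factors and on their targets are set side by side below. The sequences are from RefSeq (GRCm38.p6) and run from 250 bases before to 50 bases after an annotated transcript start, 5′ to 3′ on the strand of the gene. In the Nppb promoter, on the plus strand at chr4:147985650-147985949, capitals mark the M-CAT word GGAATG, bound by TEAD factors, and then the GATA words TGATAA and AGATAA. In the Rcan1 promoters, both on the minus strand, at chr16:92466120-92466419 for the upstream start and chr16:92400029-92400328 for the downstream start, capitals mark the NFAT core word GGAAA or its complement TTTCC.
Nppb: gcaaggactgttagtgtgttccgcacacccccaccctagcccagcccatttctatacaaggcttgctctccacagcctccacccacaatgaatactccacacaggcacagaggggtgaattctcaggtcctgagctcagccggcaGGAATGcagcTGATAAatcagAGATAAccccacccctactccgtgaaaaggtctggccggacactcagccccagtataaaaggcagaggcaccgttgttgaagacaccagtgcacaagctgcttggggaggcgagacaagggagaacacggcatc
Rcan1 upstream start: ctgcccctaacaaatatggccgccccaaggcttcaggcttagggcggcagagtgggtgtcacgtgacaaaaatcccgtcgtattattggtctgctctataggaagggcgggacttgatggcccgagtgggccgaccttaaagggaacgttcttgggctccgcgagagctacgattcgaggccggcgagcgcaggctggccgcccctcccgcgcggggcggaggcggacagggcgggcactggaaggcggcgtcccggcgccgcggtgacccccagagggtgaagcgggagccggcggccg
Rcan1 downstream start: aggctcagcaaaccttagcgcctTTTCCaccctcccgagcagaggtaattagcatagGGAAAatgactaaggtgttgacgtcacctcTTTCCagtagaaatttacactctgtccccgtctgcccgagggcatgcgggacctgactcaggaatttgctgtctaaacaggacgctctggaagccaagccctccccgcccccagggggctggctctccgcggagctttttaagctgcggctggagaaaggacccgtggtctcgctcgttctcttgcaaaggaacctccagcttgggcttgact

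Each motif was searched on both strands, and the marked words do not overlap each other. The Nppb window held 2 GATA words (TGATAA or AGATAA), at -95 and -84 from the start, and 1 M-CAT word, at -105. Of 32851 promoters of this length in the table, 3.26% held 2 or more such GATA words, 18.6% at least 1, and 14.7% an M-CAT word. The Rcan1 downstream window held 3 NFAT core words, at -227, -193 and -163, and the upstream window held 0. So short a word is common, and 9.42% of all promoters held 3 or more and 61.3% at least 1. No Nkx word (TNAAGTG, in 11.5% of all promoters) was in either gene's windows. Of the 5 genes, 4 had at least 1 window in the table. Which Rcan1 transcript the clone reads is not given in the sources used here.

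A positive log2 ratio is read below as a higher level in high salt, with base 2 assumed. The direction is likely from the array titles and not settled, since arrays of opposite dye correlated at r between -0.37 and -0.073 across the 16471 clones, which are not independent replicates, and arrays of 1 orientation at 0.57 and 0.43. Values with arrays 1 and 2 turned in sign are therefore given beside each of the 5 genes and beside some of the other genes named. A ratio shows no expression level, so neither the tissue label nor the abundance of the 5 transcripts could be checked. In such whole-tissue RNA, fewer cells of a type and less RNA per cell cannot be told apart.

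No difference between high and low salt passed the test for any of the 5 genes. By limma 0 of 5 genes and 0 of 9 clones passed an adjusted p of 0.05, where 0.0% of all 8106 genes and 0.0% of all 16471 clones did. At an unadjusted p under 0.05 stood 1 of the 5 genes, Nkx2-5, against 5.44% of all genes, and 1 of the 9 clones, against 5.21% of all clones. As deposited, Nkx2-5 was also the only one of the 5 genes with 1 sign on all 4 arrays, which 14.8% of all genes had. Both counts fall on another gene with arrays 1 and 2 turned. Gata4, as the mean of its clones, is then the 1 gene below 0 on all 4 arrays, where 31.3% of all genes have 1 sign. It is also the 1 gene at an unadjusted p under 0.05, where 20.8% of all genes are, while Nkx2-5 is neither. From the highest to the lowest mean the order was Nppb at 0.35, Rcan1 at 0.12, Nfatc3 at -0.038, Gata4 at -0.073 and Nkx2-5 at -0.32. Turned, it was Nppb at 0.48, Nfatc3 at -0.082, Rcan1 at -0.098, Gata4 at -0.18 and Nkx2-5 at -0.19, so Rcan1 and Nfatc3 change places. The 95% confidence intervals of all neighbours in the order as deposited overlapped, and the differences between genes were not tested. With 3 pairs a two-sided exact permutation test that turns the sign of each pair has 8 assignments and cannot go below p = 0.25, the value it gave for Nkx2-5.

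**Figure D1:**
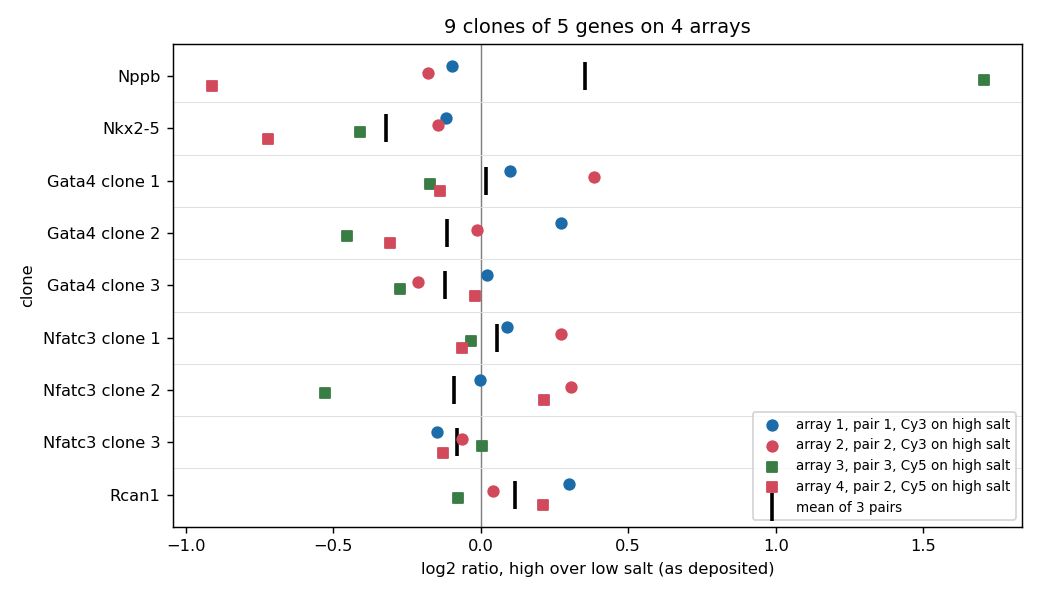
Log2 ratio of high over low salt (horizontal axis) of each of the 9 clones (vertical axis) on the 4 arrays; colour marks the mouse pair, circles Cy3 and squares Cy5 on the high-salt RNA, and the bar the mean of the 3 pairs with arrays 2 and 4 averaged. Nppb runs from -0.91 to 1.71, Nkx2-5 lies below 0 on all 4 arrays, and the other 7 clones stay between -0.53 and 0.38.

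Nppb, the secreted hormone, had opposite values in different pairs. Its log2 ratio was -0.098 on array 1, -0.18 on array 2, 1.71 on array 3 and -0.91 on array 4. It was high on array 3 alone and low on array 4, while arrays 1 and 2 lay near 0. As pairs these were -0.098, -0.55 and 1.71, with a mean of 0.35 ± 1.19 (SD, n = 3 pairs) and a 95% confidence interval from -1.11 to 1.81. The unadjusted p was 0.53 and the adjusted p 1.0 (limma, over all genes), and a rise and a fall of 1 log2 unit both lie within that interval.

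The spread of Nppb was wide for this data set. Its SD over the pairs was exceeded by 1.08% of all clones, where the median SD was 0.15. On array 3 only 0.419% of all clones lay farther from 0 and on array 4 1.27%, against 51.3% and 43.8% on arrays 1 and 2. Arrays 2 and 4 held the same RNA, and there the Nppb values differed by 0.73, against a median gap of 0.20 over all clones; 10.4% of clones had a wider gap. Turned, the gap was 1.09, against a median of 0.17, and 3.33% of clones had a wider one. In both readings part of the spread of this clone lay between repeat arrays of the same mice.

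The sign of the Nppb mean rested on pair 3. Without pair 3 the mean was -0.32 (adjusted p = 0.52, limma), and without pair 1 or pair 2 it was 0.58 and 0.80. With arrays 1 and 2 turned, the pairs stood at 0.098, -0.37 and 1.71 and the mean at 0.48 (adjusted p = 0.61).

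Heart size and atrial markers were set beside Nppb pair by pair. The cardiac weight index, heart over body weight, of the high-salt mice exceeded that of their low-salt partners by 0.82, 0.84 and 0.70 mg/g in pairs 1 to 3. The pair with the highest Nppb ratio, pair 3, had the smallest difference in heart index. That pair was read on 1 array, and 3 pairs are too few for a correlation, so a link was not tested. Atria hold much natriuretic peptide mRNA, and 4 of 9 listed atrial markers were measured, with medians of 0.33, -0.0082 and 0.28 in the 3 pairs, or -0.33, -0.035 and 0.28 with the arrays turned. In pairs 1 to 3 as deposited, Dkk3, a secreted glycoprotein, stood at 0.55, 0.46 and 0.47, Nr2f2, an atrial transcription factor, at 0.10, 0.042 and 0.36, its relative Nr2f1 at -0.021, -0.059 and 0.21, and Stard10 at 0.86, -0.24 and -0.64. Pair 3, where Nppb was highest, was thus also the highest for Nr2f2 and Nr2f1 and not for Dkk3 or Stard10. Turned, it was the highest for 3 of the 4, with Dkk3 at -0.55, 0.040 and 0.47, and for Stard10 pair 2 was highest, at -0.86, -0.48 and -0.64. Nppa and Myl7, also on the atrial marker list, were not analysed here. The part of atrial tissue in the Nppb values was not tested.

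The other measured genes of the natriuretic peptide system lay on both sides of 0. Of 12 listed genes 8 were measured, Nppb among them, with 4 above and 4 below 0 and a median of 0.00054. Over all genes 49.8% were above and 50.2% below 0, with a median of -0.00026. None passed the adjusted threshold in either direction (limma), and 0 stood at an unadjusted p under 0.05. Furin, a protease that cuts the Nppb precursor, was the only one of the 8 above 0 on all arrays, as were 7.01% of all genes. It stood at 0.22, 0.30, 0.044 and 0.50 on arrays 1 to 4 with a mean of 0.22 ± 0.18 (SD, n = 3 pairs). With arrays 1 and 2 turned its mean was -0.024. Corin, the protease of the related atrial peptide, was at -0.033 ± 0.085, the clearance receptor Npr3 at 0.023 ± 0.20 and the cGMP-dependent kinase Prkg1, a downstream effector, at 0.087 ± 0.12. Pde2a, an enzyme that breaks down cGMP, stood at 0.020, -0.0091, -0.53 and 0.40 on arrays 1 to 4. These 4 were chosen after their values were seen.

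Nkx2-5, the homeobox factor of heart muscle, was below 0 throughout. Its log2 ratio was -0.12 on array 1, -0.14 on array 2, -0.41 on array 3 and -0.72 on array 4. The values were lower on both arrays with Cy5 on high salt than on both with Cy3 on it. Of all clones, 23.9% had a larger difference between the means of the 2 dye orientations. The pairs stood at -0.12, -0.43 and -0.41, with a mean of -0.32 ± 0.17 (SD, n = 3 pairs) and a 95% confidence interval from -0.58 to -0.058. The unadjusted p was 0.028 and the adjusted p 0.86 (limma), so the difference did not pass.

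The Nkx2-5 value also differed between the dye orientations. On the 2 repeat arrays of pair 2 it differed by 0.58, a gap that 16.0% of clones exceeded, and turned by 0.86, which 6.00% exceeded. Taking pair 2 from array 2 alone gave a mean of -0.22 and taking it from array 4 alone -0.42. With arrays 1 and 2 turned, the pairs were 0.12, -0.29 and -0.41, no longer of 1 sign, and the mean was -0.19 (adjusted p = 0.45). The mean stayed below 0 in all 9 alternatives, from -0.42 to -0.19, and passed in none. Most of these could not change the sign. As all 4 arrays were below 0 as deposited, leaving out a pair or an array had to keep it. The dye covariate and keeping all features left the mean at -0.32. Mainly the turning of arrays 1 and 2 could have changed it.

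Gata4, the zinc finger factor that binds the GATA words shown above, had 3 clones with unlike values. Clone 1 stood at 0.098, 0.38, -0.17 and -0.14 on arrays 1 to 4, clone 2 at 0.27, -0.013, -0.45 and -0.31, and clone 3 at 0.0225, -0.21, -0.27 and -0.018. All 3 were above 0 on array 1 and all 3 below 0 on arrays 3 and 4. Clones 1 and 2 differed between the dye orientations. Their means were 0.24 and 0.13 on the arrays with Cy3 on high salt and -0.15 and -0.38 on those with Cy5. Of all clones, 26.5% differed more between the orientations than clone 1 and 19.6% more than clone 2.

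As a gene, Gata4 stood at 0.13, -0.051 and -0.30 in pairs 1 to 3. Its mean was -0.073 ± 0.22 (SD, n = 3 pairs), with a 95% confidence interval from -0.38 to 0.23 (adjusted p = 1.0, limma). The clone means ran from -0.12 for clone 3 to 0.016 for clone 1 and the clone SDs from 0.15 to 0.36. Turned, the pairs were -0.13, -0.10 and -0.30 and the mean was -0.18. The unadjusted p was then 0.0499, under 0.05, and the adjusted p 0.24 (limma). All 4 arrays were then below 0 for the gene (-0.13, -0.053, -0.30 and -0.15), but among the clones only for clone 1. On array 2 turned, clone 2 stood at 0.013 and clone 3 at 0.21. The turned means of clones 1 to 3 were -0.18, -0.29 and -0.066. Without pair 3 the mean as deposited was 0.040, and its sign therefore also rested on that pair.

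The cardiac transcription factor list, of which Gata4 and Nkx2-5 are part, had 12 of 20 genes measured, with 5 above and 7 below 0. Its median was -0.024. None passed (limma) and 1, Nkx2-5, stood at an unadjusted p under 0.05. Below 0 on all 4 arrays were 3 of the 12, Nkx2-5, Gata6 and Hand1, against 7.75% of all genes. Hand1 was barely so, at -0.0007 on array 1 and -0.0077 on array 3. Gata6, the close relative of Gata4 in the adult heart, stood at -0.084, -0.15, -0.16 and -0.22 on arrays 1 to 4, with a mean of -0.14 ± 0.052 (SD, n = 3 pairs; adjusted p = 0.93), and Hand1, a basic helix-loop-helix factor, at -0.029 ± 0.043. Tead1, a factor that binds M-CAT words, was at -0.021 ± 0.037; it was chosen after its value was seen. Turned, none of these 3 was below 0 on all arrays and 4 others were, Gata4, Gata5, Tbx20 and Mef2a, against 18.7% of all genes. Turned, 10 of the 12 were below 0, where 4322 of all 8106 genes were. The turned median was -0.094, against -0.011 over all genes.

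**Figure D2:**
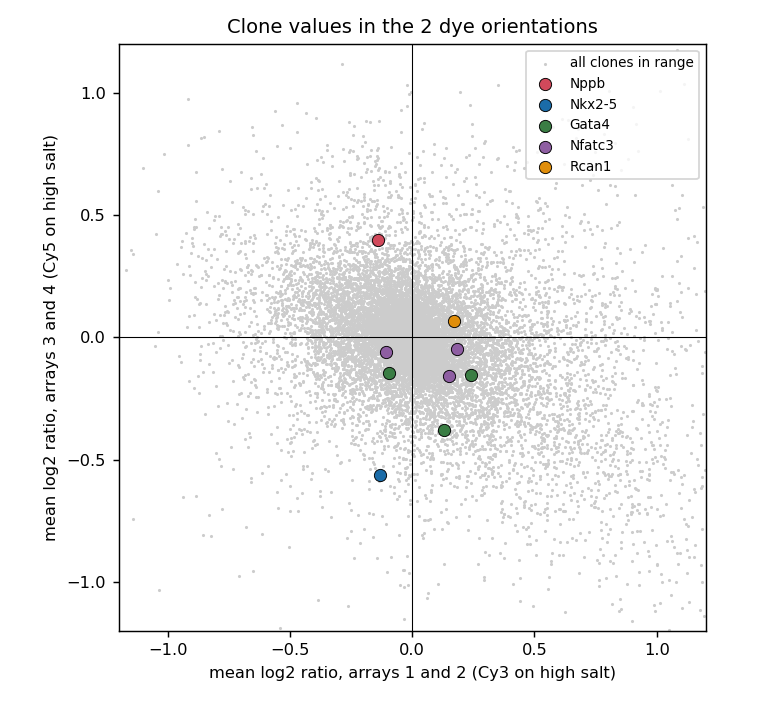
Mean log2 ratio of arrays 1 and 2 (horizontal axis, Cy3 on high salt) against that of arrays 3 and 4 (vertical axis, Cy5 on high salt) for the 9 clones in colour and for all other clones in grey; 235 of 16471 clones beyond 1.2 on either axis are not drawn. Nkx2-5, Rcan1, 1 Gata4 clone and 1 Nfatc3 clone lie in the quadrants of like sign, and the other 5 clones in those of opposite sign.

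Across the set, 5 of 9 clones had opposite signs in the 2 dye orientations, near the 61.5% of all clones. These were Nppb, Gata4 clones 1 and 2 and Nfatc3 clones 1 and 2. If the values are high over low salt as read here, a gene-specific dye effect cancels in the mean over the pairs. This is because pair 1 and pair 3 have opposite orientations and pair 2 has both. The effect still widens the spread. It does not cancel where pair 1 or pair 3 is left out or pair 2 is taken from 1 array. If the values are instead 1 dye over the other, it cancels with arrays 1 and 2 turned and not as deposited.

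Nfatc3, the calcineurin-dependent factor, was close to 0. Its clone 1 stood at 0.090, 0.27, -0.034 and -0.063 on arrays 1 to 4, clone 2 at -0.0033, 0.31, -0.53 and 0.22, and clone 3 at -0.15, -0.062, 0.0061 and -0.13. Clone 2 spread over 0.83 log2 units and clone 3 over 0.15, so the 3 clones of this gene did not share 1 pattern. Only clone 2 lay far below 0 on array 3, while its arrays 2 and 4, the same mice, differed by 0.091 as deposited and by 0.52 turned.

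As a gene, Nfatc3 stood at -0.021, 0.090 and -0.19 in pairs 1 to 3. Its mean was -0.038 ± 0.14 (SD, n = 3 pairs), with a 95% confidence interval from -0.27 to 0.19 (adjusted p = 1.0, limma), and clone SDs of 0.076, 0.40 and 0.079. A change of more than 0.27 log2 units in either direction lay outside that interval. The mean was -0.082 with the arrays turned, 0.035 without pair 3 and 0.023 when the median of the clones replaced their mean.

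Rcan1, the calcineurin inhibitor and NFAT target, was above 0 on 3 of 4 arrays. It stood at 0.30 on array 1, 0.042 on array 2, -0.078 on array 3 and 0.21 on array 4. Pair 1 was highest and pair 3 lowest, and the repeat arrays of pair 2 differed by 0.17, or by 0.25 turned. The mean of the pairs, 0.30, 0.13 and -0.078, was 0.12 ± 0.19 (SD, n = 3 pairs), with a 95% confidence interval from -0.16 to 0.39 (adjusted p = 1.0, limma). With the arrays turned the mean was -0.098, so its sign depends on the reading of the table. Without pair 1 it was 0.024 and without pair 3 0.21.

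**Figure D3:**
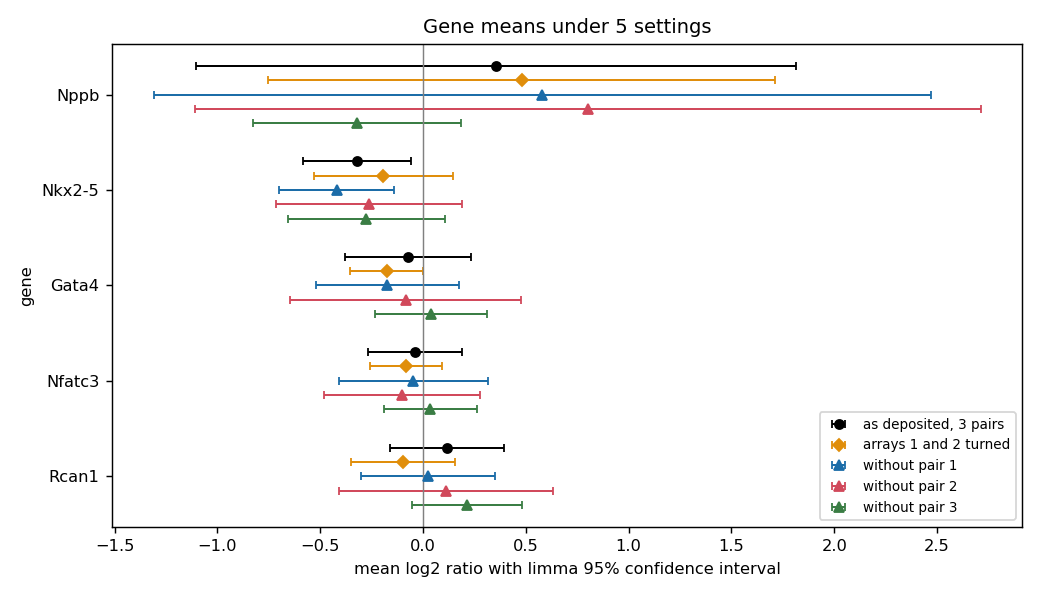
Mean log2 ratio with its limma 95% confidence interval (horizontal axis) of the 5 genes (vertical axis) as deposited, with arrays 1 and 2 turned and without each pair. The Nppb mean moves from -0.32 without pair 3 to 0.80 without pair 2, and the Nkx2-5 mean stays below 0 in all 5 settings shown.

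The calcineurin and NFAT list had 12 of 17 genes measured, Nfatc3 and Rcan1 among them, with 7 above and 5 below 0 and a median of 0.038. None passed (limma), and 1, Fkbp1a, stood at an unadjusted p under 0.05. The catalytic subunits of calcineurin were near 0: Ppp3ca had a mean of 0.030 ± 0.053 and Ppp3cb of -0.033 ± 0.11 (SD, n = 3 pairs). Of the 12, 2 were above 0 on all 4 arrays, against 7.01% of all genes. Cabin1, an inhibitor of calcineurin, stood at 0.19, 0.83, 0.032 and 0.069 on arrays 1 to 4 with a mean of 0.22 ± 0.21, and Fkbp1a, the protein through which the drug FK506 blocks calcineurin, at 0.22, 0.18, 0.17 and 0.049 with a mean of 0.17 ± 0.053 (adjusted p = 0.91). Turned, Cabin1 was at -0.18, Fkbp1a at -0.039 and the list median at -0.036, so these signs also depend on the reading. The 2 genes above 0 on all arrays were then Ppp3ca and Nfatc4 instead, and 1, Nfatc2, was below 0 on all. Turned, 31.3% of all genes had 1 sign on all 4 arrays. Rcan2 was not analysed here.

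The kinases that send NFAT back to the cytoplasm or act on Gata4, with the exporter Xpo1, had 9 of 13 genes measured, 3 above and 6 below 0, with a median of -0.034. None passed (limma). Mapk9, a JNK kinase that phosphorylates NFAT proteins, was below 0 on all arrays, at -0.29, -0.25, -0.25 and -0.021, with a mean of -0.23 ± 0.083 (SD, n = 3 pairs; unadjusted p = 0.027, adjusted p = 0.86), and at 0.050 when turned. Wider hypertrophy kinases and class II histone deacetylases had 12 of 20 measured, 4 above and 8 below 0, a median of -0.011 and none at an unadjusted p under 0.05 or past the adjusted one (limma).

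Sarcomere genes of the fetal or loaded heart could hardly be followed, as 2 of 14 listed were measured. Fhl1, a LIM protein that responds to stretch, stood at 0.17, 0.50, 0.39 and 0.53 on arrays 1 to 4 with a mean of 0.36 ± 0.17 (SD, n = 3 pairs; unadjusted p = 0.019, adjusted p = 0.86, limma), or 0.078 when turned. Atp2a2, the calcium pump of the sarcoplasmic reticulum, which falls in many failing hearts, stood at -0.40, -0.045, -0.0093 and -0.058 with a mean of -0.15 ± 0.21, or 0.13 when turned. Pair 1 decided its size, and without that pair the mean was -0.030. Neither passed.

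**Figure D4:**
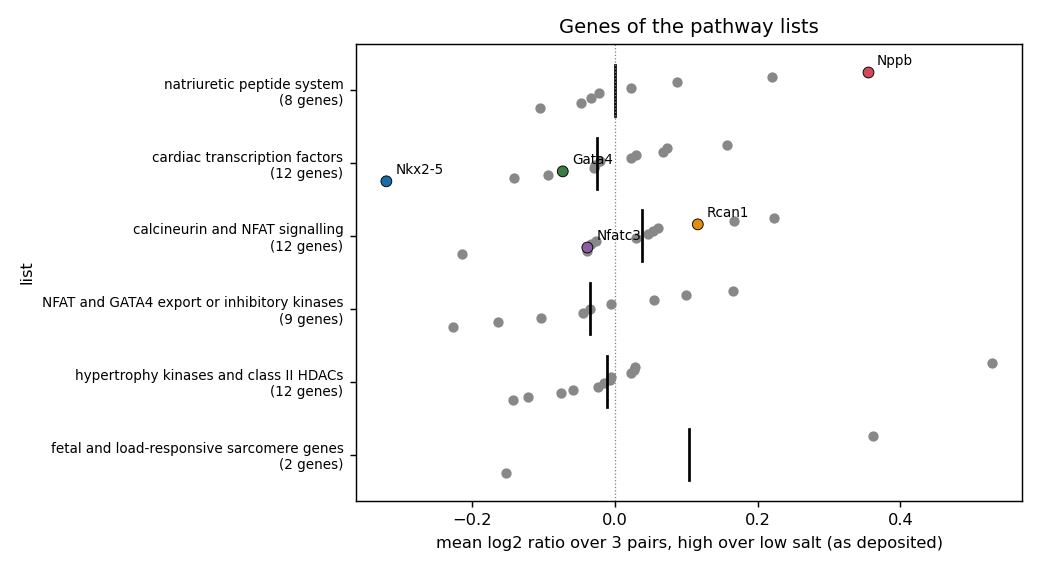
Mean log2 ratio over the 3 pairs as deposited (horizontal axis) of each measured gene in the 6 pathway lists (vertical axis); grey points are list genes, coloured points the 5 genes described here and vertical bars the list medians. The medians lie between -0.034 and 0.10, with Nppb at 0.35 and Nkx2-5 at -0.32 at the ends of their lists as deposited; turned, Nkx2-5 at -0.19 is not the lowest of its list, where Mef2a is at -0.29 and Mef2d at -0.22.

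Markers of other cells in the ventricle were measured in part. Of fibroblast markers 9 of 10 were measured, 8 of them above 0, with a median of 0.37, and with medians of 0.34, 0.28 and 0.35 in pairs 1 to 3. Heart muscle was represented by 2 of 13 markers, Ttn at 0.067 ± 0.046 and Ryr2 at 0.054 ± 0.14 (SD, n = 3 pairs). Turned, Ttn was at -0.077 and Ryr2 at 0.14. Medians were -0.0064 for 7 endothelial, 0.18 for 3 smooth muscle, -0.39 for 3 leukocyte and -0.019 for 2 blood markers. Of the 3 leukocyte genes Lyz2 was at 0.45, Cd14 at -0.39 and S100a9 at -1.42. Turned, the medians were -0.0061 for fibroblast, 0.11 for endothelial, -0.0092 for smooth muscle, 0.16 for leukocyte and 0.0070 for blood markers, so all 5 of these medians change sign with the reading. Nkx2-5 is made mainly by heart muscle cells. The part of the cell mix in the Nkx2-5 and Gata4 values was not tested.

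The genes nearest to each of the 5 were taken by root mean square difference over the 4 array log2 ratios. This distance is in log2 units, so a gene with small ratios has many neighbours whatever its pattern. The nearest genes were picked on these same values, so their likeness is no separate result. For Nppb the nearest 3 of 8105 genes were Gm36723 at 0.46, Plekha7 at 0.48 and Clcn1 at 0.48, all high on array 3 (2.09, 1.43 and 1.69) and at -0.10, -0.010 and 0.018 on array 4, where Nppb was at -0.91. They were the only 3 genes within 0.5 of it, and 0 lay within 0.2. For Nkx2-5 the nearest were Rhd at 0.052, Tex14 at 0.080 and Sphk2 at 0.085, and 44 genes lay within 0.2.

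The other 3 genes had more genes within 0.2, as genes with small log2 ratios do by this measure. Gata4 was nearest to Rcor2 at 0.021, Hoxc5 at 0.025 and Ncbp3 at 0.031, and had 2384 genes within 0.2, 29.4% of all. Nfatc3 was nearest to Dlx5, Synrg and Akap8l, at 0.019, 0.019 and 0.020, with 3294 genes within 0.2, and Rcan1 to Cul4a, Irgq and Cnot9, at 0.043, 0.046 and 0.058, with 1704. These distances are the same with arrays 1 and 2 turned, as both genes of a pair then turn together.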

How the data were processed

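The authors deposited 1 log ratio of the 2 dyes per feature and array, taken here as log2; no source used here gives the scanner, background correction, normalization, log base or direction, and no intensities were used. Per the labels' protocols, 50 µg total RNA per dye was reverse transcribed with oligo(dT) and hybridised to printed cDNA clones. Of 17664 features 17207 had values (array medians between -0.0062 and 0.01). Left out were 736 features at 23 print positions that carry no gene name in any of the 32 print blocks. Symbols came from the platform annotation table. Arrays 2 and 4 were averaged to pair 2. Each clone, and each gene as the mean of its clones, was set against 0 by limma 3.58.1 (lmFit, eBayes; R 4.3.3), adjusted by Benjamini-Hochberg over all clones or genes, at 0.05. The script was tested on simulated data. List genes named are those of 1 sign on all arrays (at most 4 a list by p) and 6 set names, and others are said to be chosen after their values were seen; marker genes named, outside this rule, are all the measured ones of the atrial, heart muscle and leukocyte lists; the 3 nearest genes were named for each member. The genes and lists were chosen with earlier results of these data known. Each sample is a mouse pair, and no label says how the mice were paired.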

Additional observations from a re-analysis of the deposited data

How the results depend on the processing

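The count of genes or clones past the adjusted threshold (limma) was 0 as deposited and in all alternatives run, which were turned arrays 1 and 2, scaled arrays, pair 2 from 1 array, a dye covariate, all features kept and each pair left out; at an unadjusted p under 0.05 the genes numbered 145 to 1683, against 441. Leaving out 1 pair moved the mean log2 ratio of Nppb between -0.32 and 0.80, Gata4 between -0.17 and 0.040, Nfatc3 between -0.10 and 0.035, Gata4 clone 1 between -0.037 and 0.11, Gata4 clone 2 between -0.31 and 0.056, Nfatc3 clone 2 between -0.27 and 0.13 and Ppp3cb between -0.094 and 0.012. These changed sign. Medians of lists near 0 did so too: the natriuretic peptide list ran from -0.020 to 0.057 and the cardiac transcription factor list from -0.049 to 0.013. The hypertrophy kinase list ran from -0.0175 to 0.0026. The cause was not tested, and without pair 1 or 3 the dyes are unbalanced. With arrays 1 and 2 turned, the sign also changed for Rcan1 (-0.098), Gata4 clone 1 (-0.18), Nfatc3 clone 1 (-0.097), Nfatc3 clone 3 (0.040), Furin (-0.024), Cabin1 (-0.18), Fkbp1a (-0.039), Mapk9 (0.050) and Atp2a2 (0.13). It changed too for the medians of the calcineurin list (-0.036) and the hypertrophy kinase list (0.031). With pair 2 from array 4, Gata4 clone 1 was at -0.070 and Nfatc3 clone 1 at -0.0020, and the median over clones put Nfatc3 at 0.023. Pair 2 from array 4 also put the median of the export kinase list at 0.013 and of the hypertrophy kinase list at 0.016. The natriuretic peptide median was -0.0024 with pair 2 from array 2 and -0.0021 with scaled arrays. Nkx2-5 kept its sign in its 9 alternatives, most of which could not change it, as all 4 arrays were below 0 as deposited. Without intensities, signal over background could not be weighed, and 3 pairs limit the precision.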

Other observations

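In the kinase and endothelial lists, the gene with the highest mean had values of opposite sign in the 2 dye orientations. Both genes were chosen after their values were seen. Akt1, a growth kinase, stood at 2.10 and 2.28 on the arrays with Cy3 on high salt and at -1.34 and -0.63 on those with Cy5, and its mean over the pairs was 0.53 ± 1.74 (SD, n = 3 pairs). Cdh5, an endothelial cadherin, stood at 1.47, 2.42, -0.81 and -0.36 on arrays 1 to 4, with a mean of 0.57 ± 1.21. With arrays 1 and 2 turned their means were -1.63 and -1.23. Neither passed the adjusted threshold in either reading. Other marker genes with large values kept 1 sign on all 4 arrays as deposited, among them S100a9 with a mean of -1.42, Col3a1 at 1.04, Col1a2 at 1.03 and Vim at 0.81, also chosen after their values were seen. Turned, these 4 were at -0.23, -0.085, -0.12 and -0.13. Other fibroblast markers differed as deposited: Tcf21 was below 0 on all 4 arrays with a mean of -0.041. Col1a1 stood at -0.021, -0.66, 0.23 and 0.58 on arrays 1 to 4, with a mean of 0.057. Col3a1 had 4 clones, not all given here, and those given were unlike and chosen after their values were seen. Feature 1456 stood at 2.17 with Cy3 and 1.92 with Cy5 on high salt, and feature 2126 at 0.44 and 0.038.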
